A study of Mus musculus with 8 samples.

Results

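Lipid droplets are stores of neutral lipid, and 8 genes that coat them, fill them or empty them are described here in mature oligodendrocytes of mice with and without microglia. The genes were given as a list, *Plin3*, *Plin2*, *Dgat1*, *Dgat2*, *Soat1*, *Pnpla2*, *Mgll* and *Abhd5*, and were matched by symbol to the deposited matrix, which holds 18833 genes. All 8 were found. RNA of single cells was sequenced from 2 brain regions, hippocampus and cortex, of 2 female wild-type mice (labelled WT, *Fire*+/+, mice 1 and 4) and 2 female mice that lack the *Fire* enhancer of *Csf1r* (labelled FIREdelta/delta KO, *Fire*Δ/Δ, mice 3 and 6), so that 4 mice gave 8 libraries. Mice 1 and 3 were aged 1 month and 18 days, and mice 4 and 6 were aged 1 month and 16 days. The labels name no other allele and no treatment, all mice were on a mixed CBA:C57Bl6J background, and the wild-type mice came from crosses of carriers of the deletion. The *Fire* deletion is carried by every cell of the animal, which lacks microglia while other macrophages of the brain remain, so a difference cannot be told apart from an effect of the deletion in other cells. The tissue labelled cortex was the left hemisphere without the hippocampus, and actinomycin D, which blocks transcription, was present while tissue was dissociated.

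A lipid droplet is a core of triacylglycerol and cholesteryl ester inside a single layer of phospholipid that carries perilipins and other coat proteins. Its core is made at the endoplasmic reticulum by acyltransferases and is emptied by a chain of lipases, which frees fatty acids for oxidation, membrane synthesis or signalling. Oligodendrocytes build myelin, a membrane rich in lipid, and triacylglycerol and cholesteryl ester are the forms in which cells keep fatty acid and cholesterol that they do not use at once. Of the 8 genes, *Plin3* and *Plin2* encode perilipins, *Dgat1* and *Dgat2* encode the enzymes for the last step of triacylglycerol synthesis, and *Soat1* encodes the enzyme that esterifies cholesterol. *Pnpla2* encodes the lipase that opens triacylglycerol breakdown, *Abhd5* encodes its coactivator, and *Mgll* encodes the lipase that splits monoacylglycerol and also degrades an endocannabinoid.

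In the GENCODE annotation of GRCm38 all 8 are protein-coding genes: *Plin3* lies at chr17:56277476-56292873, *Plin2* at chr4:86648386-86670060, *Dgat1* at chr15:76502015-76511953, *Dgat2* at chr7:99153658-99182719, *Soat1* at chr1:156424525-156474331, *Pnpla2* at chr7:141455198-141460743, *Mgll* at chr6:88724412-88828360 and *Abhd5* at chr9:122351608-122381524. RefSeq promoters of GRCm38.p6, each 250 bases before and 50 after a transcription start, were matched for 6 of the genes (7 promoters, as *Mgll* has 2). Those of *Plin3* and *Abhd5* are shown because these genes had the same order of levels over the oligodendrocyte clusters, and the first of *Mgll* because its order was another. Capitals mark matches, on either strand, to the E-box CACGTG, the CCAAT box and the GC box GGGCGG.
Plin3, chr17:56290462-56290761, minus strand: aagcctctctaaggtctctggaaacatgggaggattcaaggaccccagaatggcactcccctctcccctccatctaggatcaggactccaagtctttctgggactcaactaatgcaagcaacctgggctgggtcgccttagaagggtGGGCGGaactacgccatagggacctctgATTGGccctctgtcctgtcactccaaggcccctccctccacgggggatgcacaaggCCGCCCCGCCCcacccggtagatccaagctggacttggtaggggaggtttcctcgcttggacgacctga
Abhd5, chr9:122351366-122351665, plus strand: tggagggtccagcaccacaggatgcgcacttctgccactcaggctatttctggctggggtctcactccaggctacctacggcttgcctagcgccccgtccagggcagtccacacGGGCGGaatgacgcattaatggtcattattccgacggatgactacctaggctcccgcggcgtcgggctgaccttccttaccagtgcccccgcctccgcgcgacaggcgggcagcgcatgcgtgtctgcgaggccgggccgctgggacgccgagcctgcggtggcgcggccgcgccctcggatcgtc
Mgll, chr6:88724162-88724461, plus strand: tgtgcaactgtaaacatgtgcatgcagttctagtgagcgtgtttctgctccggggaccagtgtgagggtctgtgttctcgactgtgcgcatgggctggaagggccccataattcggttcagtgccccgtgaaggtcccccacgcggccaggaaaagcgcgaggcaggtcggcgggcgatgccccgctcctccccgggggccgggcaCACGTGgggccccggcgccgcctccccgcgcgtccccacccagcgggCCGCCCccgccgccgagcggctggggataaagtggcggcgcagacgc

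The *Plin3* window held 3 GC boxes, of which a pair overlapped by 1 base, and 1 CCAAT box, that of *Abhd5* held 1 GC box, and that of *Mgll* held 1 E-box and 1 GC box. The other *Mgll* promoter, not shown, held 1 GC box and no E-box. Over all 32851 RefSeq promoters of this length, 35.7% held a GC box, 37.4% a CCAAT box and 7.15% an E-box, so these matches are a description and not sites. The letters TATAAA, searched for on both strands and held by 13.6% of promoters, were not matched in the 3 windows. The RefSeq start of *Plin3* lies inside the longer GENCODE gene.

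Libraries held 904 to 2784 cells with median counts of 9377 to 13725.5 unique molecular identifiers (UMIs, 1 per captured RNA molecule) per cell and library totals of 12015360 to 27847948 UMIs. The oligodendrocyte genes *Mog*, *Mag* and *Mbp* had a UMI in 100% of cells of every library. *Csf1r* had one in 5.31% to 10.2% of cells in *Fire*+/+ libraries and in at most 0.155% in *Fire*Δ/Δ libraries, as labelled. The 12 microglial marker genes together gave 0.674 to 1.62 UMIs per 10000 UMIs in *Fire*+/+ libraries and 0.166 to 0.220 in *Fire*Δ/Δ libraries, where *Tmem119* was at 0 throughout and up to 6 of the 12 were at 0 in a library. Microglia also express genes such as *Plin2* and *Soat1*, and the part of microglial RNA in the values below was not tested. Barcodes shared between libraries numbered 21 (42 cells). The authors' 4 clusters, Oligo1 to Oligo4, held 1558, 2382, 7579 and 1062 cells, and all but 6 of the Oligo1 cells came from *Fire*Δ/Δ mice. Summed marker levels of astrocytes (2.22 to 2.72 and 1.78 to 2.63 UMIs per 10000 in *Fire*+/+ and *Fire*Δ/Δ libraries), erythrocytes (0.316 to 9.94 and 0.823 to 8.78), progenitors, neurons and endothelium (each at most 0.259) overlapped between genotypes. Outside Oligo1 all 3 erythrocyte genes tested were higher and all 3 microglial genes tested were lower in *Fire*Δ/Δ mice, with 0 called in limma and 2 and 3 of them under 0.05 before adjustment, and the part of blood RNA was not tested either. The matrix holds oligodendrocytes alone, so no other cell type could give the share of cells that free RNA alone would mark.

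The first question was whether the genotypes differed. *Plin3*, a perilipin that is soluble in the cytosol and joins droplets as they form, was the member with the widest difference. Its mean log2 value over all cells (log2 of the UMI count over the size factor of the cell, plus 1) was 0.59 and 0.61 in the hippocampus and 0.62 and 0.58 in the cortex of mice 1 and 4 (*Fire*+/+). In *Fire*Δ/Δ mice it was 0.67 and 0.69 in the hippocampus and 0.83 and 0.84 in the cortex of mice 3 and 6. All 4 *Fire*Δ/Δ libraries lay above all 4 *Fire*+/+ libraries, and the *Fire*+/+ libraries lay close together. The difference was 0.16 (95% interval 0.062 to 0.26, n = 2 mice each), with an adjusted p of 1.00 from limma against a threshold of 0.05. Of all genes tested, 2.78% had 4 *Fire*Δ/Δ libraries above 4 *Fire*+/+ libraries.

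Outside Oligo1, the cluster made up almost wholly of *Fire*Δ/Δ cells, the gap in *Plin3* was wider. The clusters were made from these same expression values, and *Plin3* was low in Oligo1. Leaving its cells out raised the *Fire*Δ/Δ mean of *Plin3* from 0.76 to 0.84 while the *Fire*+/+ mean stayed at 0.60, so the widening is no separate result. The mean log2 value was 0.81 and 0.76 in the hippocampus and 0.89 and 0.90 in the cortex of mice 3 and 6, against 0.58 to 0.62 over the *Fire*+/+ libraries. The genotypes again did not overlap, and the difference was 0.24 (95% interval 0.14 to 0.35, n = 2 mice each). It stood at place 9 of 9232 genes by size, yet its adjusted p from limma was 0.846. *Plin3* was chosen with earlier results of these data known. Its place and the lack of overlap are therefore a description and no independent test. As UMIs per 10000, *Plin3* stood at 1.07 ± 0.0475 in *Fire*+/+ and 1.61 ± 0.0288 in *Fire*Δ/Δ mice (SD, n = 2 each), a ratio of 1.51. With every cell thinned to 5000 UMIs, 29.5% ± 0.350 of *Fire*+/+ cells and 40.0% ± 0.529 of *Fire*Δ/Δ cells had a *Plin3* UMI, against ranges of 41.2% to 48.6% and 52.0% to 60.3% per library without thinning. The exact permutation test over mice gave p = 0.33 for both measures, the smallest that 2 mice against 2 allow.

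The direction of the *Plin3* difference was the same in every batch, each of which holds 1 tissue of 1 *Fire*+/+ and 1 *Fire*Δ/Δ mouse. Outside Oligo1 it was 0.23, 0.27, 0.15 and 0.32 in batches 3, 4, 5 and 6, and the ratio of UMIs per 10000 was 1.39, 1.50, 1.35 and 1.82. Of all genes tested outside Oligo1, 1.46% had 4 *Fire*Δ/Δ libraries above 4 *Fire*+/+ libraries, and 10.2% were higher in all 4 batches, as were *Plin3*, *Dgat1* and *Pnpla2* on the log2 scale. The ratio of UMIs per 10000 of *Dgat1* was 0.962 in batch 6 (0.968 over all cells) and that of *Pnpla2* 0.981 in batch 3, both the other way. Over all cells *Plin3* and *Dgat1* were higher in all 4 batches on the log2 scale, beside 13.4% of genes. *Plin3* was the sole member of the 8 without overlap between libraries. Cells of Oligo2 made up 22.3% to 29.8% of cells outside Oligo1 in *Fire*Δ/Δ libraries and 15.9% to 23.4% in *Fire*+/+ libraries. As *Plin3* was highest in that cluster, the difference was computed again with Oligo2 to Oligo4 in 1 fixed mix and with equal weights, both chosen after the data were seen, and was 0.19 and 0.16.

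The genotypes were then compared within each cluster, and the clusters were made by the authors from these same expression values. In Oligo2 the mean log2 value of *Plin3* was 1.45 and 1.36 in the hippocampus and 1.42 and 1.46 in the cortex of mice 1 and 4 (*Fire*+/+). In *Fire*Δ/Δ mice it was 1.54 and 1.65 in the hippocampus and 1.65 and 1.86 in the cortex of mice 3 and 6. No library of one genotype overlapped the other, and the difference was 0.25 (95% interval 0.014 to 0.49, adjusted p = 1.00 from limma). In Oligo3, the cluster with most cells, *Plin3* was 0.38 to 0.47 over the *Fire*+/+ libraries and 0.59 to 0.71 over the *Fire*Δ/Δ libraries. These did not overlap either, with a difference of 0.19 (95% interval 0.095 to 0.29, adjusted p = 1.00 from limma). Among genes tested, 1.44% in Oligo2 and 1.14% in Oligo3 had *Fire*Δ/Δ libraries above all *Fire*+/+ libraries. limma called 0.0215% of genes in Oligo2, 0.0109% in Oligo3 and 0.0959% in Oligo4, and none of the 8 members in any of them, as did edgeR with 0.043%, 0.0328% and 0.266%. Before adjustment 1 member in each cluster was under 0.05 (*Plin3*, *Plin3* and *Dgat1*), beside 1.49%, 0.712% and 2.82% of genes. In Oligo4, where *Plin3* was low, the libraries overlapped and the difference was 0.030 (95% interval -0.029 to 0.090, adjusted p = 1.00 from limma). Thinned to 5000 UMIs, 22.6% ± 0.833 of *Fire*+/+ and 32.1% ± 1.90 of *Fire*Δ/Δ Oligo3 cells had a *Plin3* UMI (SD, n = 2 mice each). The hippocampus pair of batch 3 had the same share in Oligo2, 69.8% in both mice.

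**Figure D1:**
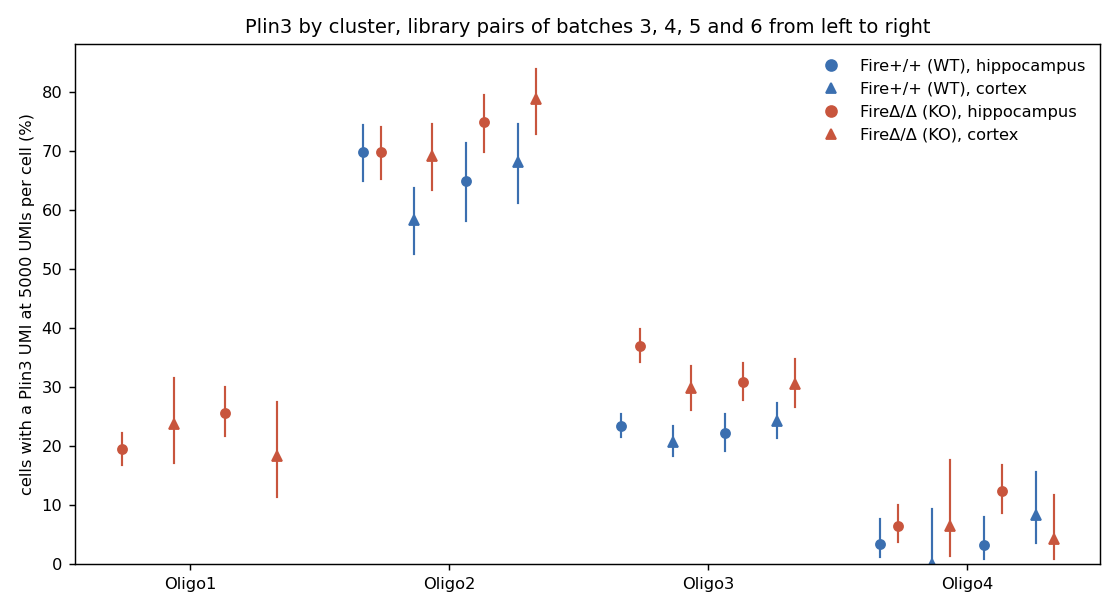
Share of cells with a *Plin3* UMI, in percent, after each cell was thinned to 5000 UMIs, for each library and cluster, with WT in blue and KO in red, circles for hippocampus, triangles for cortex and bars for exact (Clopper-Pearson) 95% binomial intervals, which cover counting error only. Within Oligo3 all 4 *Fire*Δ/Δ libraries (29.8% to 37.0%) sit above all 4 *Fire*+/+ libraries (20.7% to 24.2%), while Oligo1 cells lie at 18.4% to 25.7%.

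*Plin2*, the perilipin that is stable only on droplets, was low and its libraries overlapped outside Oligo1. Its mean log2 value outside Oligo1 was 0.032 to 0.055 over the *Fire*+/+ libraries and 0.036 to 0.057 over the *Fire*Δ/Δ libraries. The difference was -0.000081 (95% interval -0.020 to 0.020, adjusted p = 1.00 from limma). In Oligo2 *Plin2* was higher in *Fire*Δ/Δ in all 4 batches, as were *Plin3* and *Pnpla2* and 8.34% of genes, by 0.0013, 0.022, 0.040 and 0.0014 in batches 3, 4, 5 and 6, with a difference of 0.016 (95% interval -0.0093 to 0.042, adjusted p = 1.00 from limma) that was 0.0032 without *Fire*+/+ mouse 4, 0.0076 without *Fire*Δ/Δ mouse 3, 0.025 without *Fire*Δ/Δ mouse 6 and 0.029 without *Fire*+/+ mouse 1. At this depth a UMI of *Plin2* was found in 4.60% to 7.45% of all cells of a library, near the minimum of 5% on average that a gene needed to be tested.

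The genes of neutral lipid synthesis did not separate the genotypes. *Dgat2*, which makes triacylglycerol at the endoplasmic reticulum and the droplet surface, had a mean log2 value outside Oligo1 of 0.23 and 0.26 in the hippocampus and 0.23 and 0.27 in the cortex of mice 1 and 4 (*Fire*+/+). In *Fire*Δ/Δ mice it was 0.26 and 0.19 in the hippocampus and 0.26 and 0.19 in the cortex of mice 3 and 6. Mouse 6 lay below all *Fire*+/+ libraries in both tissues and mouse 3 did not, and the difference was -0.021 (95% interval -0.093 to 0.051). *Dgat1*, the other enzyme of this step, differed by 0.0076 (95% interval -0.017 to 0.032) and was higher in *Fire*Δ/Δ within all 4 batches, by 0.010, 0.015, 0.0013 and 0.0038, with libraries that overlapped. *Soat1*, which esterifies cholesterol, was 0.11 to 0.13 and 0.11 to 0.14 over the libraries of *Fire*+/+ and *Fire*Δ/Δ mice, a difference of 0.0018 (95% interval -0.027 to 0.030). None of the 3 passed in limma, with adjusted p values of 1.00, 1.00 and 1.00. In Oligo4 alone *Dgat1* libraries did not overlap, at 0.036 to 0.060 in *Fire*+/+ and 0.082 to 0.13 in *Fire*Δ/Δ libraries, a difference of 0.044 (95% interval 0.0080 to 0.081, adjusted p = 1.00 from limma). Of all genes tested in Oligo4, 1.77% had such a gap with *Fire*Δ/Δ higher and 1.8% with *Fire*Δ/Δ lower, and some libraries held as few as 38 Oligo4 cells.

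Among the genes of lipolysis, *Pnpla2*, the triacylglycerol lipase, was higher in both *Fire*Δ/Δ mice than in both *Fire*+/+ mice, with an interval that took in 0. Its mean log2 value outside Oligo1 was 0.23 and 0.24 in the hippocampus and 0.26 and 0.26 in the cortex of mice 1 and 4 (*Fire*+/+). In *Fire*Δ/Δ mice it was 0.23 and 0.26 in the hippocampus and 0.29 and 0.31 in the cortex of mice 3 and 6. Cortex libraries of *Fire*Δ/Δ mice were highest and both *Fire*Δ/Δ hippocampus libraries lay within the range of the *Fire*+/+ libraries. The difference was 0.026 (95% interval -0.031 to 0.084, adjusted p = 1.00 from limma), was 0.017 without *Fire*Δ/Δ mouse 6, and 9.84% of genes tested had both *Fire*Δ/Δ mice above both *Fire*+/+ mice. *Abhd5*, the coactivator of that lipase, differed by -0.00040 outside Oligo1 (95% interval -0.095 to 0.094, adjusted p = 1.00 from limma). Its sign differed between tissues, with -0.038, 0.061, -0.045 and 0.020 in batches 3, 4, 5 and 6, of which 3 and 5 are hippocampus. *Mgll*, the monoacylglycerol lipase, differed by -0.0077 (95% interval -0.071 to 0.055, adjusted p = 1.00 from limma). In Oligo2 both *Fire*Δ/Δ mice were below both *Fire*+/+ mice for *Mgll*, with a difference of -0.057 (95% interval -0.14 to 0.025), and for *Abhd5*, with -0.047 (95% interval -0.17 to 0.081), as were 9.93% of genes. Without *Fire*Δ/Δ mouse 3 these were -0.032 and -0.017, and without *Fire*Δ/Δ mouse 6 *Abhd5* was -0.077. *Abhd5* was lower in all 4 batches of Oligo2, as were 8.05% of genes. In the same cluster both *Fire*Δ/Δ mice were above both *Fire*+/+ mice for *Pnpla2*, with a difference of 0.039 (95% interval -0.040 to 0.12) that was 0.018 without *Fire*Δ/Δ mouse 6, and for *Soat1*, with 0.011 (95% interval -0.028 to 0.050) that was 0.0016 without *Fire*Δ/Δ mouse 3 and 0.020 without *Fire*Δ/Δ mouse 6, as were 11.2% of genes. *Abhd5* was 0.49 to 0.62 in Oligo4 of *Fire*+/+ libraries and 0.44 to 0.48 in *Fire*Δ/Δ libraries, lower in all 4 of the latter, with a difference of -0.094 (95% interval -0.21 to 0.019). Of all genes tested in Oligo4, 1.8% had every *Fire*Δ/Δ library below every *Fire*+/+ library, and the smallest of these groups held 38 cells. limma gave *Mgll* and *Abhd5* in Oligo2 and *Abhd5* in Oligo4 adjusted p values of 1.00, 1.00 and 1.00, and *Pnpla2* and *Soat1* in Oligo2 1.00 and 1.00.

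**Figure D2:**
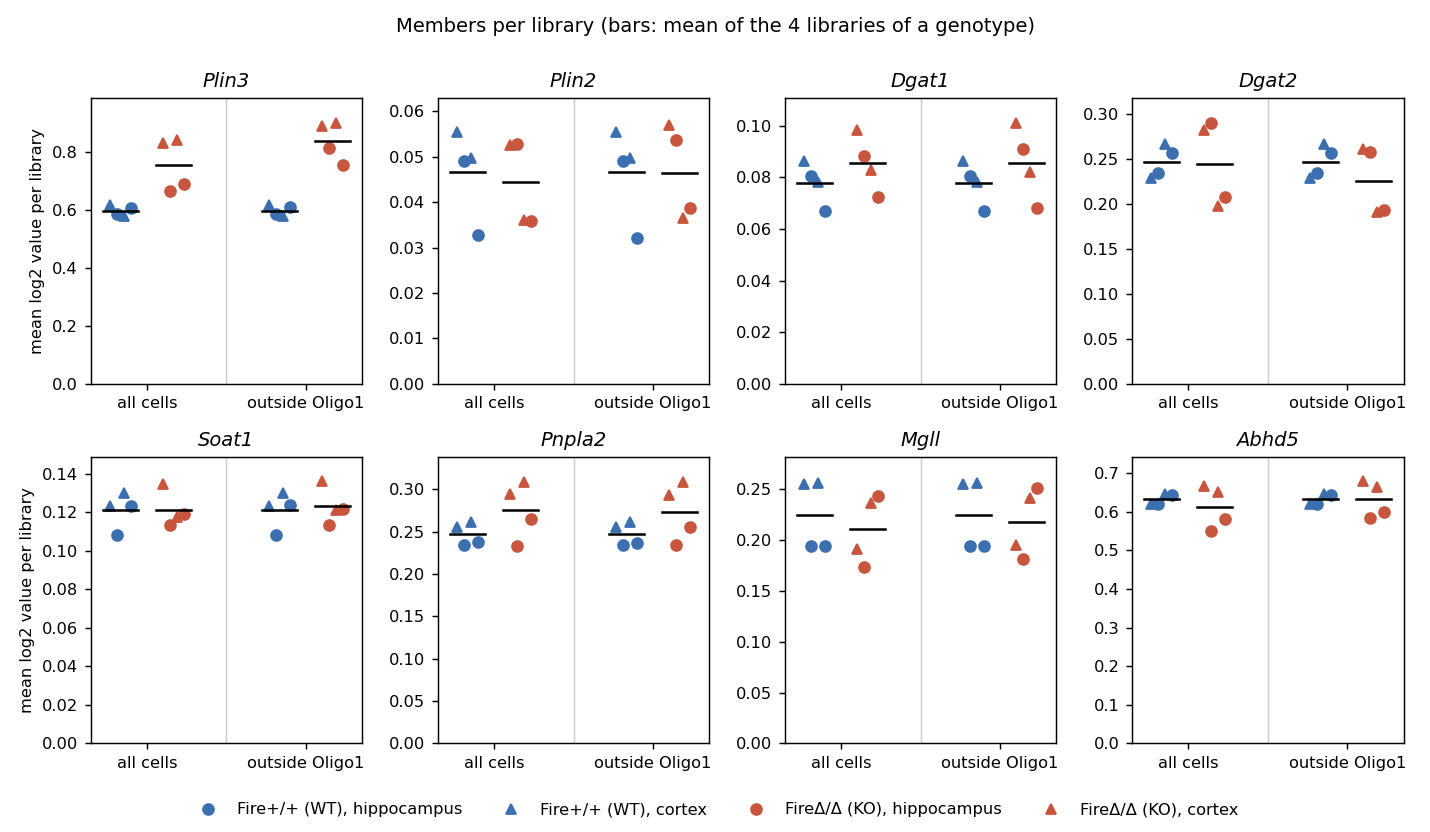
Mean log2 value of each gene in each library, over all cells (left of each panel) and over cells outside Oligo1 (right), with *Fire*+/+ in blue, *Fire*Δ/Δ in red, circles for hippocampus, triangles for cortex and black bars for the mean of 4 libraries. The *Fire*Δ/Δ libraries of *Plin3* lie above every *Fire*+/+ library in both sets of cells, and the libraries of the other 7 genes overlap.

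Counted as a group, 0 of the 8 genes passed an adjusted p of 0.05 in limma in the comparison over all cells, and 1 (*Plin3*) had p under 0.05 before adjustment. Of the 9257 genes tested there 0.054% passed, and 2.02% had p under 0.05 before adjustment. Outside Oligo1 the members again gave 0 and 1, against 0.0217% (2 genes, *C4b* and *Serpina3n*) and 1.05% of 9232 genes. edgeR on summed UMIs called 0.0864% and 0.0325% of genes in these comparisons and DESeq2 0.529% and 0.162%, with 0 of the 8 among them. The median difference over the 8 genes was -0.0012 over all cells and 0.00087 outside Oligo1, beside 0.0013 and 0.00075 over all genes tested. With 2 mice per genotype the 95% intervals outside Oligo1 reached from -0.095 to 0.094 for the 7 genes other than *Plin3*.

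**Figure D3:**
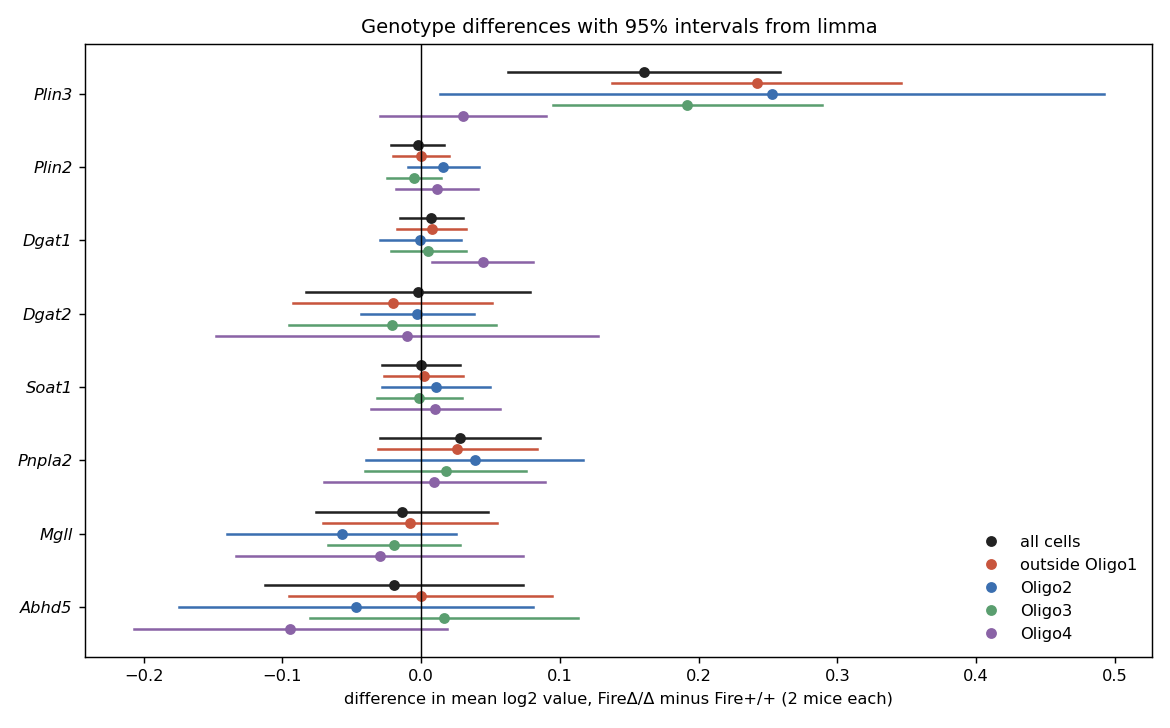
Difference in mean log2 value between *Fire*Δ/Δ and *Fire*+/+ mice (x axis) for each gene over all cells, outside Oligo1 and within Oligo2, Oligo3 and Oligo4, with points for the estimate and lines for the 95% interval from limma. The intervals of *Plin3* lie above 0 in every set of cells but Oligo4, and of the other 35 intervals that of *Dgat1* in Oligo4 alone leaves out 0.

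The second comparison was between the clusters, which the authors made from these expression values, so that it describes them and is no test. Of the members, *Plin3* and *Dgat2* each kept 1 order of Oligo2 to Oligo4 in 8 of 8 libraries, and *Mgll* and *Abhd5* each in 7 of 8. *Plin3* was highest in Oligo2, where it averaged 1.42 over the *Fire*+/+ mice and 1.67 over the *Fire*Δ/Δ mice, lower in Oligo3 (0.43 and 0.62) and lowest in Oligo4 (0.095 and 0.12). This order of Oligo2 to Oligo4 held in 8 of 8 libraries, and Oligo1 lay between Oligo3 and Oligo4 in all 4 *Fire*Δ/Δ libraries. *Dgat2* had the opposite order in 8 of 8 libraries, with 0.43 and 0.42 in Oligo4, 0.27 and 0.25 in Oligo3 and 0.090 and 0.088 in Oligo2 (*Fire*+/+ and *Fire*Δ/Δ means). Over all 9257 genes 7.18% kept 1 order of these 3 clusters in all 8 libraries, and the share that kept 1 order in 7 of 8 was not counted.

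*Abhd5* had the *Plin3* order in 7 of 8 libraries, with 0.76 to 0.86 in Oligo2, 0.56 to 0.61 in Oligo3 and 0.49 to 0.62 in Oligo4 over the *Fire*+/+ libraries. The exception was the hippocampus of *Fire*+/+ mouse 4, in which Oligo4 (0.62) and Oligo3 (0.61) were close. *Mgll* had an order of its own, highest in Oligo4, next in Oligo2 and lowest in Oligo3, in 7 of 8 libraries. It was 0.31 to 0.52 in Oligo4, 0.30 to 0.41 in Oligo2 and 0.14 to 0.20 in Oligo3 over the *Fire*+/+ libraries. The ranges of Oligo2 and Oligo4 overlapped while Oligo3 stood apart from both. In the *Fire*Δ/Δ libraries *Plin3*, *Dgat2*, *Mgll* and *Abhd5* each kept 1 order of all 4 clusters in 4 of 4, as did 3.83% of genes. *Pnpla2* was highest in Oligo2 and lowest in Oligo4 in 6 of 8 libraries and *Soat1* in 5 of 8. *Plin2* and *Dgat1*, whose most frequent orders were met in 3 of 8 libraries, showed no stable order.

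**Figure D4:**
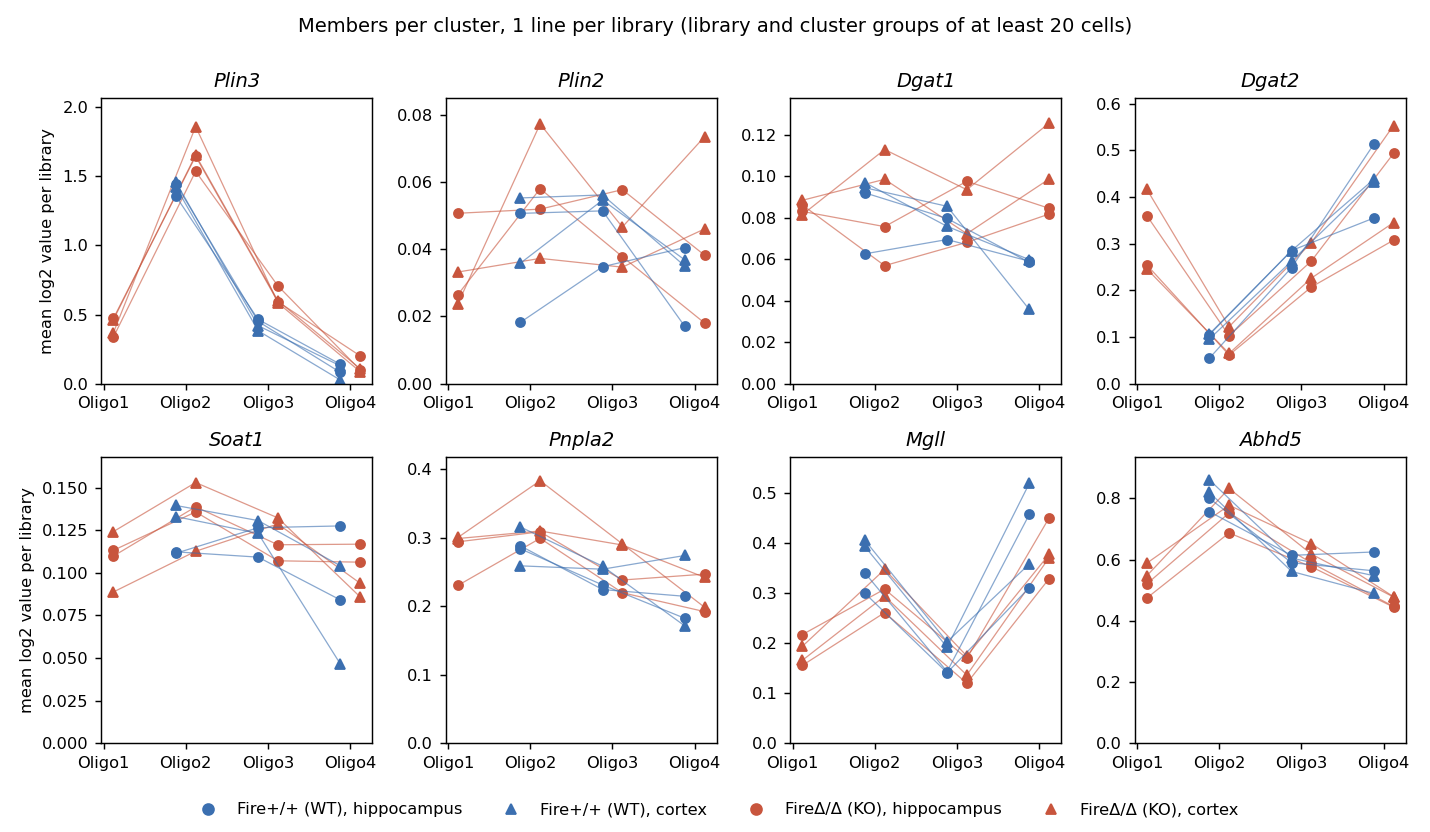
Mean log2 value of each gene in each cluster, with 1 line per library, *Fire*+/+ in blue and *Fire*Δ/Δ in red, circles for hippocampus and triangles for cortex, and groups of at least 20 cells shown. *Plin3* is lower in each step from Oligo2 to Oligo4 in every library while *Dgat2* is higher, and Oligo1 points come from *Fire*Δ/Δ libraries alone.

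Oligo1 cells were then set beside the other cells of the same *Fire*Δ/Δ library, again as a description. *Plin3* stood out among the members by its low level in Oligo1. Its mean log2 value in Oligo1 cells was 0.34 and 0.47 in the hippocampus and 0.46 and 0.37 in the cortex of mice 3 and 6. In the other cells it was 0.81 and 0.76 in the hippocampus and 0.89 and 0.90 in the cortex of mice 3 and 6. Every Oligo1 value lay below every value of the other cells, with a mean difference of -0.43, and counted from the lowest difference *Plin3* was at place 15 of 9257 genes. The ratio of UMIs per 10000 was 0.364 and 0.550 in the hippocampus and 0.407 and 0.308 in the cortex of mice 3 and 6. The Oligo1 values (0.34 to 0.47) overlapped those of *Fire*+/+ Oligo3 cells (0.38 to 0.47) and lay below those of *Fire*Δ/Δ Oligo3 cells (0.59 to 0.71).

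*Dgat2* went the other way, with Oligo1 minus other cells at 0.10 and 0.062 in the hippocampus and 0.16 and 0.055 in the cortex of mice 3 and 6. It was the sole member higher in Oligo1 in all 4 libraries, as were 19% of genes. *Abhd5* was lower in Oligo1, with a log2 difference of -0.079 to -0.12 over the libraries, and *Mgll* with one of -0.026 to -0.047. *Plin2* and *Soat1* were below 0 in all 4 libraries too, at -0.0030 to -0.033 and -0.00032 to -0.032. On the log2 scale 5 of the 8 members were thus lower in every library, as were 16.3% of genes. The ratio of UMIs per 10000 of *Soat1* was 1.04 in the hippocampus of mouse 3, the other way. *Dgat1* and *Pnpla2* differed in sign between libraries.

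**Figure D5:**
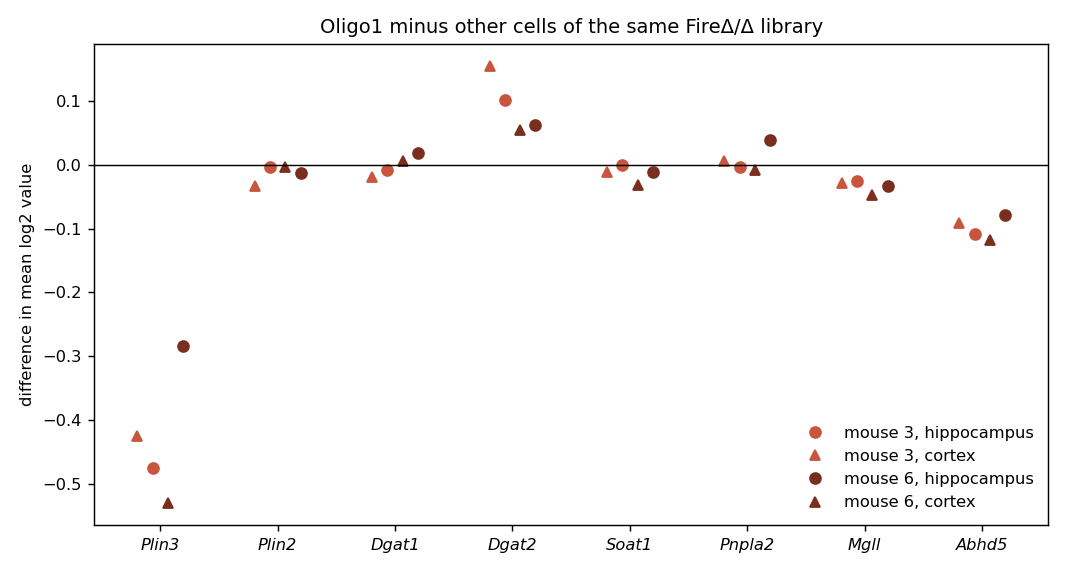
Difference in mean log2 value between Oligo1 cells and the other cells of the same *Fire*Δ/Δ library (y axis) for each gene, with 1 point per library, mouse 3 in light and mouse 6 in dark red, circles for hippocampus and triangles for cortex. *Plin3* lies between -0.53 and -0.28, *Dgat2* above 0, and *Plin2*, *Dgat1*, *Soat1* and *Pnpla2* near 0.

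Tissues were compared over the 8 libraries with genotype in the model. Of the members, 7 were lower in the hippocampus than in the cortex and 1 (*Dgat2*) was higher, beside 64.4% of all genes lower, and the median difference was -0.022 over the 8 and -0.0051 over all genes. *Pnpla2* (difference -0.038, 95% interval -0.071 to -0.0041) and *Dgat1* (-0.0094, 95% interval -0.024 to 0.0054) were lower in the hippocampus of all 4 mice, as were 18.6% of genes. The tissue difference of *Plin3* was -0.080 (95% interval -0.16 to -0.0025), an average of -0.0027 in *Fire*+/+ and -0.16 in *Fire*Δ/Δ mice, and was -0.052 without *Fire*Δ/Δ mouse 3. limma called 0 of the 8, and 0 of 9257 genes, with 2 members (*Plin3* and *Pnpla2*) and 451 genes (4.87%) at p under 0.05 before adjustment, and edgeR called 0. Both tissues came from the same mice, and with the mouse as a replicate block limma called 58 genes (0.627%) and none of the 8, whose lowest adjusted p was 0.129 for *Pnpla2*.

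The genotype difference of *Plin3* over all cells was 0.083 in the hippocampus and 0.24 in the cortex. limma's test of this contrast, made on 1 tissue difference per mouse, gave -0.16 (95% interval -0.23 to -0.075) with an adjusted p of 0.279 (n = 2 mice each, limma). Oligo1, in which *Plin3* was low, held 30.9% and 23.2% of *Fire*Δ/Δ hippocampus cells and 13.7% and 10.8% of *Fire*Δ/Δ cortex cells in mice 3 and 6. Without Oligo1 cells the contrast was -0.11 (adjusted p = 0.887 from limma), and the part that Oligo1 had in it was not tested. *Mgll* (0.056) and *Abhd5* (-0.094) were with *Plin3* the 3 members under 0.05 before adjustment in the same limma test, and had adjusted p values of 0.713 and 0.677, where 6.31% of genes were under 0.05 before adjustment and 0.0216% passed after it.

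Likeness of pattern was measured by Pearson's r of the mean log2 value over the 28 groups of 1 library and 1 cluster with at least 20 cells. These points share mice, libraries and the clusters made from the same values, so r is a description with no p. The genes most like *Plin3* were *Mapre2* (0.98), *Dctn4* (0.97), *Mgst3* (0.97), and *Dgat2* was close to *Hebp1* (0.95), *Cntfr* (0.94). *Abhd5* was nearest to *Apbb2* (0.95), *Cyp27a1* (0.94), *Rnd2* (0.93), *Mgll* to *Rab7b* (0.86), *Gnb4* (0.82), *Tenm4* (0.82) and *Pnpla2* to *Tppp3* (0.85), *Cdk18* (0.83), *2310022B05Rik* (0.83). Among the members themselves, *Plin3* and *Abhd5* had r = 0.91, *Plin3* and *Pnpla2* 0.72, and *Dgat2* was opposed to *Plin3* (-0.89) and to *Abhd5* (-0.82). *Mgll* had r between -0.25 and 0.13 with the other 7. The 3 scarcer genes had weaker nearest matches, for *Soat1* *Il17rb* (0.79), *Ewsr1* (0.73), *Klhl42* (0.73), for *Dgat1* *Tk2* (0.82), *Snapc2* (0.77), *Ubl4a* (0.75) and for *Plin2* *Vps45* (0.72), *Fzr1* (0.70), *Sfxn4* (0.67).

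The rest of the pathway was read from 5 gene lists, outside Oligo1, where the median over all genes tested was 0.00075 and 52.8% of genes were higher with the deletion. Genes with a UMI in under 5% of cells were not tested. Of other coat and assembly genes, 15 of 22 genes were tested, 8 higher and 7 lower with the deletion, and the median difference was 0.0043. *Ldah*, a droplet-associated hydrolase, differed by 0.025, 95% interval -0.072 to 0.12, and *Hilpda*, an inhibitor of the *Pnpla2* lipase, by -0.0085, 95% interval -0.028 to 0.011. For glycerolipid synthesis, 9 of 15 genes were tested, 2 higher and 7 lower with the deletion, and the median difference was -0.0047. By cluster, 3 were higher and 5 lower in Oligo2, 1 was higher and 8 lower in Oligo3, and 5 were higher and 4 lower in Oligo4. *Agpat3*, an acyltransferase that acts on lysophosphatidic acid, was 0.88 to 0.93 in *Fire*+/+ and 0.79 to 0.87 in *Fire*Δ/Δ libraries, a difference of -0.056, 95% interval -0.18 to 0.070. It was named because its mice did not overlap. Its libraries did not overlap either, and 0.953% of genes tested had all *Fire*Δ/Δ libraries below all *Fire*+/+ libraries. Also, *Tmem68* differed by -0.0077, 95% interval -0.041 to 0.025. These values are differences in mean log2 value with 95% intervals from limma.

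For lipolysis and ester hydrolysis, 8 of 12 genes were tested, 6 higher and 2 lower with the deletion, and the median difference was 0.0071, while 3 were higher and 5 lower in Oligo2 and 4 were higher and 4 lower in Oligo3. *Lipe*, hormone-sensitive lipase, was the only gene of that list whose mice did not overlap (0.020, 95% interval -0.015 to 0.056), and 9.84% of genes tested had both *Fire*Δ/Δ mice above both *Fire*+/+ mice. For fatty acid uptake, activation and oxidation, 17 of 22 genes were tested, 14 higher and 3 lower with the deletion, and the median difference was 0.0031, while 10 were higher and 7 lower over all cells, 11 were higher and 5 lower in Oligo2 and 10 were higher and 7 lower in Oligo3. *Fabp5*, a fatty acid binding protein, had 2.95 to 3.15 in *Fire*+/+ and 3.19 to 3.30 in *Fire*Δ/Δ libraries, with a difference of 0.17, 95% interval -0.25 to 0.60, and was named for the same reason, in the direction in which 1.46% of genes had no overlap of libraries. The next, *Acsbg1*, an acyl-CoA synthetase, differed by 0.0013, 95% interval -0.012 to 0.015. For lipid-sensing receptors, 5 of 10 genes were tested, 3 higher and 2 lower with the deletion, and the median difference was 0.0039, and *Rxrb*, a retinoid X receptor, differed by -0.028, 95% interval -0.092 to 0.036. In these 5 lists 0 genes passed an adjusted p of 0.05 in limma in any comparison of genotypes or tissues, and 0 had p under 0.05 before adjustment outside Oligo1.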

How the data were processed

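Per the labels and the study's methods, the authors counted UMIs with Cell Ranger 5.0.0 on the mm10 reference (GRCm38), removed poor cells, kept mature oligodendrocytes and deposited log2 values, each the log2 of the UMI count over a size factor of the cell, plus 1. The size factor, a ratio to the mean depth from scran, and the total UMI counts, batch and cluster of each cell were deposited beside them. The authors clustered batch-corrected components, and the deposited values are not batch corrected. The 18833 genes and 12581 cells are fewer than the study's methods state, and how doublets were treated beyond the sort gates and the authors' filters was not examined. UMIs were recovered from value and size factor, and all 42420937 values above 0 came out whole within 0.001. In 1317 cells the recovered total differed from the deposited total, by at most 147 UMIs, and the recovered totals were used.

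The 8 genes and the gene lists were chosen with earlier results of these data known. Mean log2 values per library were averaged per mouse, the replicate, and compared in limma 3.58.1 (R 4.3.3) with an intensity trend over genes detected (1 UMI or more) in 5% of cells or more, with Benjamini-Hochberg adjustment and a threshold of 0.05. Tissues were compared over libraries with genotype in the model. The tissue libraries of a mouse come from 1 animal, so the mouse was the replicate block of an alternative. Their deviations from the group means had a correlation over genes of 0.843 in *Fire*+/+ and 0.853 in *Fire*Δ/Δ mice. Both mice of a genotype give the same value here. They also differed in age and batch, which this correlation cannot tell apart from the animal. Intervals are 95% and p-values two-sided. Shares of cells were computed with each cell thinned to 5000 UMIs, with exact binomial intervals that cover counting error only. Alternatives were edgeR 4.0.16 and DESeq2 1.42.0 on UMI sums per mouse, other pseudocounts (0.1 and 1 on mean values), gene filters (10% of cells, or none), centring, no trend, single tissues, no batch 6, blocks, and leaving out each mouse. Fits were tested on simulated data. Other values came from Python 3.11.15 with numpy 2.4.6, pandas 2.3.3 and scipy 1.17.1, and plots from matplotlib 3.10.9.

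Named genes were the 8, any gene of the lists past the threshold, the 2 genes of each list with the widest difference outside Oligo1 whose mice did not overlap, the 3 genes most like each of the 8, and those that check the labels, of which some genes are not reported here. Library and cluster groups under 20 cells were left out of comparisons of clusters. Promoters are from RefSeq and gene positions from GENCODE.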

Additional observations from a re-analysis of the deposited data

Results flagged for a closer look

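A library stood far from the other 3 of its genotype and cluster for 5 values, and about 1 group in 20 does so by chance. *Plin3* in Oligo3 was 0.71 in the hippocampus of *Fire*Δ/Δ mouse 3, against 0.59 to 0.60 in the other *Fire*Δ/Δ libraries. *Dgat1* was 0.063 in Oligo2 of the hippocampus of *Fire*+/+ mouse 4, against 0.092 to 0.097, and 0.036 in Oligo4 of the cortex of *Fire*+/+ mouse 1, against 0.059 to 0.060. That Oligo4 group held 38 cells. *Pnpla2* was 0.23 in Oligo1 of the hippocampus of *Fire*Δ/Δ mouse 3, against 0.29 to 0.30, and 0.38 in Oligo2 of the cortex of *Fire*Δ/Δ mouse 6, against 0.30 to 0.31. That library belongs to batch 6, which the study's methods call poorer in quality.

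The difference between genotypes had opposite signs in the tissues, in both mouse pairs, for 3 values. *Plin2* over all cells was 0.0034 in the hippocampus and -0.0082 in the cortex, and the limma test of genotype by tissue gave an adjusted p of 0.844. *Abhd5* was -0.067 and 0.028 over all cells (adjusted p = 0.677 in the same limma test) and -0.041 and 0.040 outside Oligo1 (adjusted p = 0.887). None passed the threshold.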

How the results depend on the processing

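Of the 8 genes, 0 were called under any alternative run, which were limma in each comparison, edgeR in each but genotype by tissue, and DESeq2 over all cells and outside Oligo1. The counts over all genes tested moved with the setting, from 0 to 75 over all cells, 0 to 49 outside Oligo1, 2 to 41, 1 to 40 and 9 to 33 within Oligo2, Oligo3 and Oligo4, 0 to 58 between tissues and 0 to 75 for genotype by tissue. The *Plin3* difference kept its direction under every alternative over all cells (0.15 to 0.17 with a mouse left out) and outside Oligo1 (0.23 to 0.25), with adjusted p values from limma of 0.0680 and 0.216 where mice of 1 age were a block. DESeq2 gave it an adjusted p of 0.205 outside Oligo1. Within Oligo3 the *Plin3* difference kept its direction too, at 0.16 to 0.63 over settings with unlike log2 scales. Its adjusted p there moved with the setting and stayed above 0.05. Both tissue libraries with 1 number come from 1 mouse, and with the replicate block 58 genes in place of 0 were called between tissues, as given above, with no other call among the 8 genes changed. Differences of the other genes near 0 changed sign. In the hippocampus alone the sign turned for all cells *Soat1* 0.00034, *Plin2* 0.0034, *Mgll* 0.014, *Dgat2* 0.0031 and for outside Oligo1 *Plin2* 0.0056, *Mgll* 0.022. In the cortex alone the sign turned for all cells *Abhd5* 0.028 and for outside Oligo1 *Abhd5* 0.040. Without batch 6 the sign turned for all cells *Soat1* 0.0018, *Plin2* 0.0018, *Mgll* 0.0036, *Dgat2* 0.0028 and for outside Oligo1 *Plin2* 0.0049, *Mgll* 0.010. In edgeR the sign turned for outside Oligo1 *Plin2* 0.034. In DESeq2 the sign turned for outside Oligo1 *Plin2* 0.037. Without Oligo1 cells the sign turned for tissue *Dgat2* -0.0013 and for genotype by tissue *Soat1* -0.00027. Without thinning, the difference in the share of cells with a UMI, in percentage points, was 7.60 for *Plin3*, 1.55 for *Dgat1* and 0.627 for *Soat1*, against 7.03, 0.429 and -0.140 with thinning. With each mouse left out in turn, these ranges spanned 0: over all cells *Plin2* -0.011 to 0.0059, *Mgll* -0.043 to 0.015, *Dgat1* -0.00044 to 0.015, *Soat1* -0.0056 to 0.0054, *Dgat2* -0.044 to 0.040, outside Oligo1 *Soat1* -0.0037 to 0.0073, *Plin2* -0.0090 to 0.0088, *Mgll* -0.037 to 0.021, *Dgat1* -0.0028 to 0.018, *Abhd5* -0.013 to 0.012, *Dgat2* -0.054 to 0.013, in Oligo2 *Dgat1* -0.0088 to 0.0078, *Dgat2* -0.027 to 0.022, in Oligo3 *Abhd5* -0.00040 to 0.033, *Soat1* -0.0075 to 0.0049, *Mgll* -0.042 to 0.0022, *Dgat1* -0.0074 to 0.018, *Plin2* -0.013 to 0.0029, *Dgat2* -0.054 to 0.012, in Oligo4 *Soat1* -0.015 to 0.035, *Dgat2* -0.11 to 0.088, *Plin3* -0.010 to 0.070, *Mgll* -0.062 to 0.0023, *Pnpla2* -0.024 to 0.043 and for genotype by tissue *Soat1* -0.010 to 0.012, *Dgat1* -0.0043 to 0.0010. In these fits 1 genotype has a lone mouse, which is taken to vary like the others, and the cause of a turned sign was not tested. The share of cells with a UMI rests on counts that are small for *Plin2* and *Dgat1*, where depth limits what can be seen.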

Other observations

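The 6 Oligo1 cells of *Fire*+/+ mice, all from the hippocampus of mouse 4, entered no comparison of Oligo1. They held 0 UMIs of *Plin3*, 4 of *Abhd5*, 4 of *Pnpla2*, 1 of *Plin2*, 1 of *Soat1*, 1 of *Dgat1*, 1 of *Dgat2* and 1 of *Mgll*. So few cells give no estimate of a level.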
